A study of Saccharomyces cerevisiae with 12 samples.

Results

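The vacuolar and low-affinity metal transporters of Saccharomyces cerevisiae examined here are 10 genes taken from a named list and found on the arrays by their systematic names. They are CTR2 (YHR175W), FRE6 (YLL051C), CCC1 (YLR220W), COT1 (YOR316C), FET5 (YFL041W), FTH1 (YBR207W), FET4 (YMR319C), SMF1 (YOL122C), SMF2 (YHR050W) and BSD2 (YBR290W). They make up 10 of the 6127 genes tested and of the 6228 genes on the array. Each has 1 probe, and all 10 probes were well above background on all 12 arrays, so the filter on dim probes removed none of them.

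Gene expression was measured on 12 single-colour Agilent arrays, 1 per culture, from 4 groups of 3 cultures that the series' design text calls independent experiments. All strains were of the BY4741 background, a laboratory haploid of mating type a, and all cultures were grown for 7 h in medium without leucine with 0.02 mM CuCl2. The first group was BY4741 with CTR1 deleted and over-expressing the construct CTR1D300 (CTR1 delta-300), and the second was the same deletion strain with an empty vector. The third group was BY4741 with its own CTR1 and over-expressing full-length CTR1, and the fourth was BY4741 with an empty vector. CTR1 encodes the high-affinity copper transporter of the plasma membrane. Which bases CTR1D300 lacks and the promoter that drives either construct are not given in the sources used here. The 2 construct groups differ from each other in the construct and in the chromosomal CTR1 locus at once, and no group carried CTR1D300 in wild type or full-length CTR1 in the deletion strain. No culture was grown without the added copper.

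The yeast vacuole stores surplus metal and returns it to the cytosol when metal is scarce. Iron, manganese, zinc and cobalt enter it through importers of the vacuolar membrane, while copper and iron leave it through permeases that work with a reductase or an oxidase. At the plasma membrane, low-affinity transporters with a broad choice of metals act beside the high-affinity copper and iron systems, and Nramp proteins carry manganese and other divalent metals.

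Values below are log2 processed signals relative to the 75th percentile of their array, and differences between groups are log2 fold changes with their standard error (SE) from limma across all 6127 genes. A gene was called when its Benjamini-Hochberg adjusted p, taken over all genes tested, was under 0.05. The probe of CTR1 read 4.62 ± 0.13 in the CTR1 cultures and -2.50 ± 0.03 in the wild-type vector controls (SD, n = 3 each). On none of the 6 deletion-strain arrays did it rise well above background, so it shows the deletion but gives no reliable reading of CTR1D300. It read -9.02 ± 0.38 with CTR1D300 and -9.98 ± 0.15 with the empty vector there (SD, n = 3 each). That log2 fold change of 0.96 was called (limma adjusted p = 0.000452), with 1.58 and 0.35 from the 2 spots. Over-expression of CTR1D300 is thus given by the labels and not shown by this probe. The LEU2 probe, of a gene that BY4741 lacks and that growth without leucine requires, read -0.79 ± 0.65 in the CTR1D300 cultures, 5.59 ± 0.19 in the deletion-strain vector controls, 4.35 ± 0.18 in the CTR1 cultures and 5.86 ± 0.16 in the wild-type vector controls (SD, n = 3 each). LEU2 thus fell by 6.38 on the log2 scale with CTR1D300, and its part in the results below was not tested. HIS3, URA3 and MET17, the other auxotrophy markers of the strain, were near background throughout (well above it on 0 of 12 arrays). Of the 4 a-cell markers, MFA1, MFA2, STE2 and BAR1, all were well above background on all 12 arrays, as were the alpha-cell genes STE3, MF(ALPHA)1 and MF(ALPHA)2. On the log2 scale, STE3 fell by 1.05, MF(ALPHA)1 fell by 2.52, STE2 fell by 0.30 and MF(ALPHA)2 rose by 0.33 with CTR1D300. With full-length CTR1, STE2 fell by 0.70, MFA1 fell by 0.81, LEU2 fell by 1.51 and MF(ALPHA)1 rose by 0.79, and the part of the marker genes in the results was not tested either.

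CTR1D300 went with changes in both directions among the transporters. CCC1 and COT1, which encode importers of the vacuolar membrane, were higher in the CTR1D300 cultures than in the deletion-strain vector controls. FET4, SMF2, FTH1 and BSD2, which encode a plasma membrane iron transporter, a manganese transporter, a vacuolar iron permease and a sorting factor, were lower. Full-length CTR1 in wild type went with 1 call, a higher CTR2, and the CTR1 deletion with none.

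**Figure D1:**
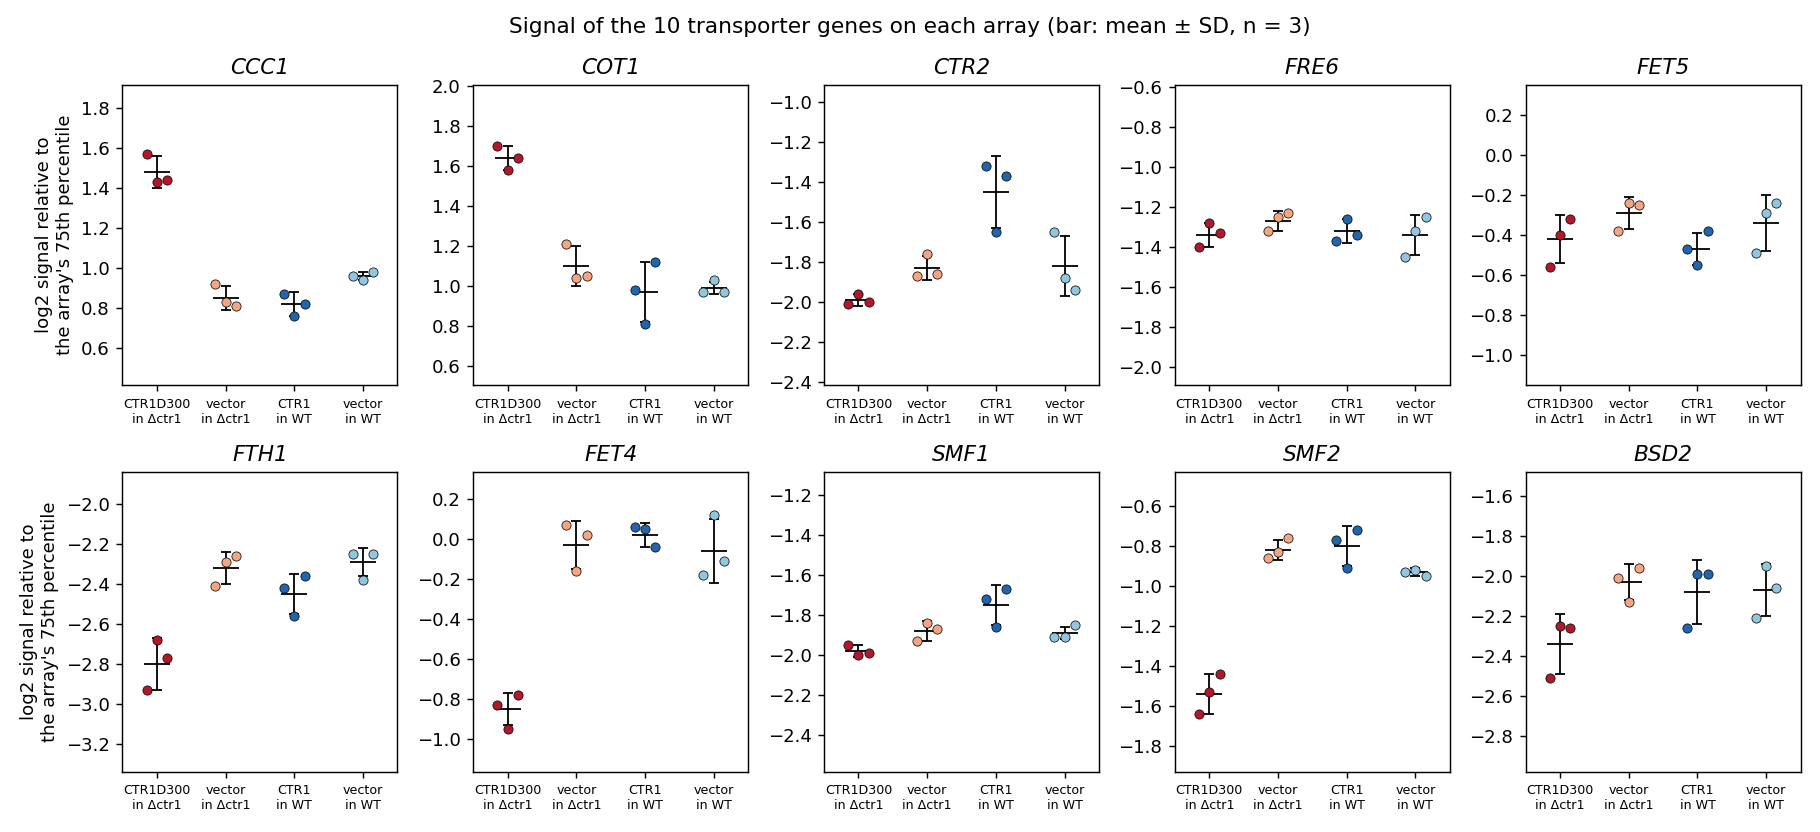
Log2 signal relative to the array's 75th percentile (y axis) of the 10 transporter genes on each of the 12 arrays, by group (x axis). Points are arrays, the long bar is the group mean and the whiskers are the SD over 3 arrays; every panel spans the same height on the log2 scale. CCC1 and COT1 stand above the other 3 groups in the CTR1D300 cultures, FET4, SMF2 and FTH1 stand below them, and CTR2 is highest in the CTR1 cultures.

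The importers of the vacuolar membrane were CCC1 and COT1. Ccc1 moves iron and manganese into the vacuole. CCC1 read 1.57, 1.43 and 1.44 in the CTR1D300 cultures, against 0.92, 0.83 and 0.81 in the deletion-strain vector controls. It read 0.87, 0.76 and 0.82 in the CTR1 cultures, against 0.96, 0.94 and 0.98 in the wild-type vector controls. Every CTR1D300 array lay above the 9 other arrays, and those 9 fell within a narrow band. With CTR1D300, CCC1 rose by 0.63 ± 0.06 on the log2 scale (limma adjusted p = 1.2e-05), which is 1.55 times the vector control's signal. The rise was 0.66 on the slide that held replicate 1 of all groups and 0.62 on the slide that held the other deletion-strain arrays. Full-length CTR1 gave -0.14 ± 0.06 (limma adjusted p = 0.176), with the 3 CTR1 arrays below the 3 controls and 0.01 and -0.26 from the 2 spots (limma adjusted p = 0.933 and 0.0231).

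Cot1 carries cobalt and zinc into the vacuole and belongs to the cation diffusion facilitators. COT1 read 1.70, 1.58 and 1.64 in the CTR1D300 cultures, against 1.21, 1.04 and 1.05 in the deletion-strain vector controls. It read 0.98, 0.81 and 1.12 in the CTR1 cultures, against 0.97, 1.03 and 0.97 in the wild-type vector controls. The CTR1D300 arrays again lay above all 9 others, and the CTR1 arrays spread to either side of their controls. The log2 fold change with CTR1D300 was 0.54 ± 0.08 (limma adjusted p = 0.000299), and with full-length CTR1 it was -0.02 ± 0.08 (limma adjusted p = 0.91). ZRC1, the paralog of COT1 that carries zinc into the vacuole, had a log2 fold change of -0.15 ± 0.08 with CTR1D300 (limma adjusted p = 0.132). YAP5, whose product is the iron-responsive activator of CCC1, gave 0.21 ± 0.13 with CTR1D300 (limma adjusted p = 0.202). Neither passed the test as the mean of its spots. The lower-numbered spot alone passed for both, at -0.18 for ZRC1 (limma adjusted p = 0.0483) and 0.45 for YAP5 (limma adjusted p = 0.0237). The higher-numbered spot gave -0.11 for ZRC1 and -0.02 for YAP5.

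Of the genes for release of vacuolar copper, CTR2 was the one called with full-length CTR1. Ctr2 is a low-affinity copper permease of the vacuolar membrane, of the same family as Ctr1. CTR2 read -2.01, -1.96 and -2.00 in the CTR1D300 cultures, against -1.87, -1.76 and -1.86 in the deletion-strain vector controls. In the wild type it read -1.32, -1.65 and -1.37 with CTR1, against -1.65, -1.88 and -1.94 with the empty vector. The 3 CTR1 arrays were the highest of all 12, though the lowest of them read the same to 2 decimals as the highest wild-type control. CTR2 rose by 0.38 ± 0.10 with full-length CTR1 (limma adjusted p = 0.0263), or 1.30 times the control's signal. The pairs of equal replicate number gave 0.33, 0.23 and 0.56. With CTR1D300 the log2 fold change was -0.16 ± 0.10 (limma adjusted p = 0.172), with all 3 CTR1D300 arrays below the controls. Its 2 spots disagreed there, at 0.05 (limma adjusted p = 0.69) and -0.38 (limma adjusted p = 0.00714).

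The rise of CTR2 was close to the threshold. Leaving out 1 array ended the call in 4 cases, with log2 fold changes of 0.35 without wild-type control 2 (adjusted p = 0.0897), 0.32 without control 3 (0.1), 0.31 without CTR1 culture 1 (0.102) and 0.34 without CTR1 culture 3 (0.103). Each probe has 2 spots per array, and the lower-numbered spot gave 0.59 (limma adjusted p = 0.00216) while the higher-numbered one gave 0.19 (limma adjusted p = 0.211). All vector controls lay in 1 column of the slides and all construct cultures in the other. Construct and slide column therefore cannot be told apart in either construct comparison, for any gene, whether or not its spots agree. CTR3, which encodes the second high-affinity copper transporter of the plasma membrane, fell by 0.31 ± 0.08 with CTR1D300 (limma adjusted p = 0.0106) and gave 0.10 ± 0.08 with full-length CTR1 (limma adjusted p = 0.49). Its signal was low in every group, with means of -4.51 with CTR1D300, -4.21 in the deletion-strain vector controls, -4.05 with CTR1 and -4.15 in the wild-type vector controls.

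FRE6 encodes the vacuolar metalloreductase that works with Ctr2. FRE6 read -1.40, -1.28 and -1.33 in the CTR1D300 cultures, against -1.32, -1.25 and -1.23 in the deletion-strain vector controls. It read -1.37, -1.26 and -1.34 in the CTR1 cultures, against -1.45, -1.32 and -1.25 in the wild-type vector controls. All 4 groups overlapped. FRE6 passed the test in none of the 5 comparisons, with log2 fold changes of -0.07 ± 0.07 for CTR1D300 (limma adjusted p = 0.405) and 0.02 ± 0.07 for CTR1 (limma adjusted p = 0.914).

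Fet5 and Fth1 form the iron exporter of the vacuolar membrane, a multicopper oxidase with its permease. FTH1 read -2.93, -2.68 and -2.77 in the CTR1D300 cultures, against -2.41, -2.29 and -2.26 in the deletion-strain vector controls. It read -2.42, -2.56 and -2.36 in the CTR1 cultures, against -2.25, -2.38 and -2.25 in the wild-type vector controls. The CTR1D300 arrays were the lowest 3 of the 12, and the other 3 groups overlapped. FTH1 fell by 0.48 ± 0.08 with CTR1D300 (limma adjusted p = 0.000732), to 0.719 times the control's signal, and gave -0.15 ± 0.08 with full-length CTR1 (limma adjusted p = 0.27).

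FET5, the oxidase of the pair, read -0.56, -0.40 and -0.32 in the CTR1D300 cultures, against -0.38, -0.24 and -0.25 in the deletion-strain vector controls. It read -0.47, -0.55 and -0.38 in the CTR1 cultures, against -0.49, -0.29 and -0.24 in the wild-type vector controls. All 4 groups overlapped with at least 1 other, and no comparison called it. The log2 fold changes were -0.14 ± 0.09 for CTR1D300 (limma adjusted p = 0.213) and -0.13 ± 0.09 for CTR1 (limma adjusted p = 0.376). With CTR1D300 the higher-numbered spot alone passed, at -0.26 (limma adjusted p = 0.0409), and the other gave -0.01. Whether FTH1 and FET5 differ in their change was not tested. Their paralogs at the plasma membrane are FET3 and FTR1, the oxidase and permease of high-affinity iron uptake. With CTR1D300, FET3 fell by 0.90 ± 0.07 (limma adjusted p = 1.42e-06) and FTR1 fell by 1.13 ± 0.08 (limma adjusted p = 1.32e-06). With full-length CTR1, FET3 rose by 0.25 ± 0.07 (limma adjusted p = 0.0284) and FTR1 gave 0.14 ± 0.08 (limma adjusted p = 0.286). For both, only the higher-numbered spot passed alone there. FET3 gave 0.38 (limma adjusted p = 0.00503) against 0.15 (0.178), and FTR1 gave 0.27 (0.0377) against 0.04 (0.816).

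FET4 encodes the low-affinity iron transporter of the plasma membrane, which also accepts copper and zinc. FET4 read -0.83, -0.95 and -0.78 in the CTR1D300 cultures, against 0.07, -0.16 and 0.02 in the deletion-strain vector controls. It read 0.06, 0.05 and -0.04 in the CTR1 cultures, against -0.18, 0.12 and -0.11 in the wild-type vector controls. All CTR1D300 arrays lay far below the 9 others, which overlapped across their 3 groups. FET4 fell by 0.83 ± 0.09 with CTR1D300 (limma adjusted p = 2.96e-05), to 0.564 times the control's signal. Among the 10 genes this was the largest change in size in that comparison. The fall was 0.90 on the shared slide and 0.79 on the other, and the 2 spots gave -0.87 and -0.79. Full-length CTR1 gave 0.08 ± 0.09 (limma adjusted p = 0.632).

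SMF1 and SMF2 encode Nramp transporters, Smf1 mainly of the plasma membrane and Smf2 of intracellular vesicles, both known for manganese. SMF2 read -1.64, -1.53 and -1.44 in the CTR1D300 cultures, against -0.86, -0.83 and -0.76 in the deletion-strain vector controls. It read -0.77, -0.91 and -0.72 in the CTR1 cultures, against -0.93, -0.92 and -0.95 in the wild-type vector controls. The CTR1D300 arrays stood apart below the other 9. SMF2 fell by 0.72 ± 0.07 with CTR1D300 (limma adjusted p = 1.23e-05), to 0.608 times the control's signal, with -0.70 and -0.73 from the 2 spots. Full-length CTR1 gave 0.13 ± 0.07 (limma adjusted p = 0.256).

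SMF1 read -1.95, -2.00 and -1.99 in the CTR1D300 cultures, against -1.93, -1.84 and -1.87 in the deletion-strain vector controls. It read -1.72, -1.86 and -1.67 in the CTR1 cultures, against -1.91, -1.91 and -1.85 in the wild-type vector controls. The CTR1D300 arrays were the 3 lowest by a small margin, and 2 of the 3 CTR1 arrays were the highest. Neither construct's effect passed the test, with log2 fold changes of -0.10 ± 0.06 for CTR1D300 (limma adjusted p = 0.194) and 0.14 ± 0.06 for CTR1 (limma adjusted p = 0.172). Single spots did pass, the lower-numbered one with CTR1D300 at -0.18 (limma adjusted p = 0.0335, against -0.02 from the other) and the higher-numbered one with CTR1 at 0.35 (limma adjusted p = 0.00602, against -0.04). Without CTR1 culture 2, the CTR1 effect on SMF1 was 0.20 (limma adjusted p = 0.0438). SMF3, the third Nramp gene, whose product releases iron from the vacuole, gave -0.15 ± 0.07 with CTR1D300 (limma adjusted p = 0.0702) and 0.14 ± 0.07 with CTR1 (limma adjusted p = 0.21). Here too single spots passed. With CTR1D300 the lower-numbered one gave -0.28 (limma adjusted p = 0.00571, against -0.02). With CTR1 the higher-numbered one gave 0.38 (limma adjusted p = 0.0219, against -0.08).

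Bsd2 is a membrane protein that sends Smf1 and Smf2 to the vacuole for degradation when metal is plentiful. BSD2 read -2.51, -2.25 and -2.26 in the CTR1D300 cultures, against -2.01, -2.13 and -1.96 in the deletion-strain vector controls. It read -2.26, -1.99 and -1.99 in the CTR1 cultures, against -2.21, -1.95 and -2.06 in the wild-type vector controls. The CTR1D300 arrays lay below their own controls but overlapped the CTR1 cultures. BSD2 fell by 0.31 ± 0.10 with CTR1D300 (limma adjusted p = 0.0292), and this call rested on 1 of the 2 spots. The higher-numbered spot gave -0.70 (limma adjusted p = 0.00155) and the lower-numbered one 0.09 (limma adjusted p = 0.392). The call was also lost without vector control 1 (-0.29, adjusted p = 0.0732), without vector control 3 (-0.27, 0.0934) and without CTR1D300 culture 1 (-0.22, 0.105).

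With full-length CTR1, BSD2 gave -0.01 ± 0.10 as the mean of 0.41 and -0.40 from its 2 spots, so this mean hides opposite readings. The gap between the spots, taken as the change in column 2 minus column 1, was 0.80, and 3.87% of all genes had a larger one. Of the partners of Bsd2, RSP5, the ubiquitin ligase that acts with it, fell by 0.30 ± 0.10 with CTR1D300 (limma adjusted p = 0.0203). TRE1 and TRE2, which encode its adaptors, gave 0.07 ± 0.05 (limma adjusted p = 0.31) and -0.18 ± 0.08 (limma adjusted p = 0.0685) and did not pass the test. The 2 spots of TRE2 disagreed, at 0.02 (limma adjusted p = 0.881) and -0.38 (limma adjusted p = 0.00257).

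**Figure D2:**
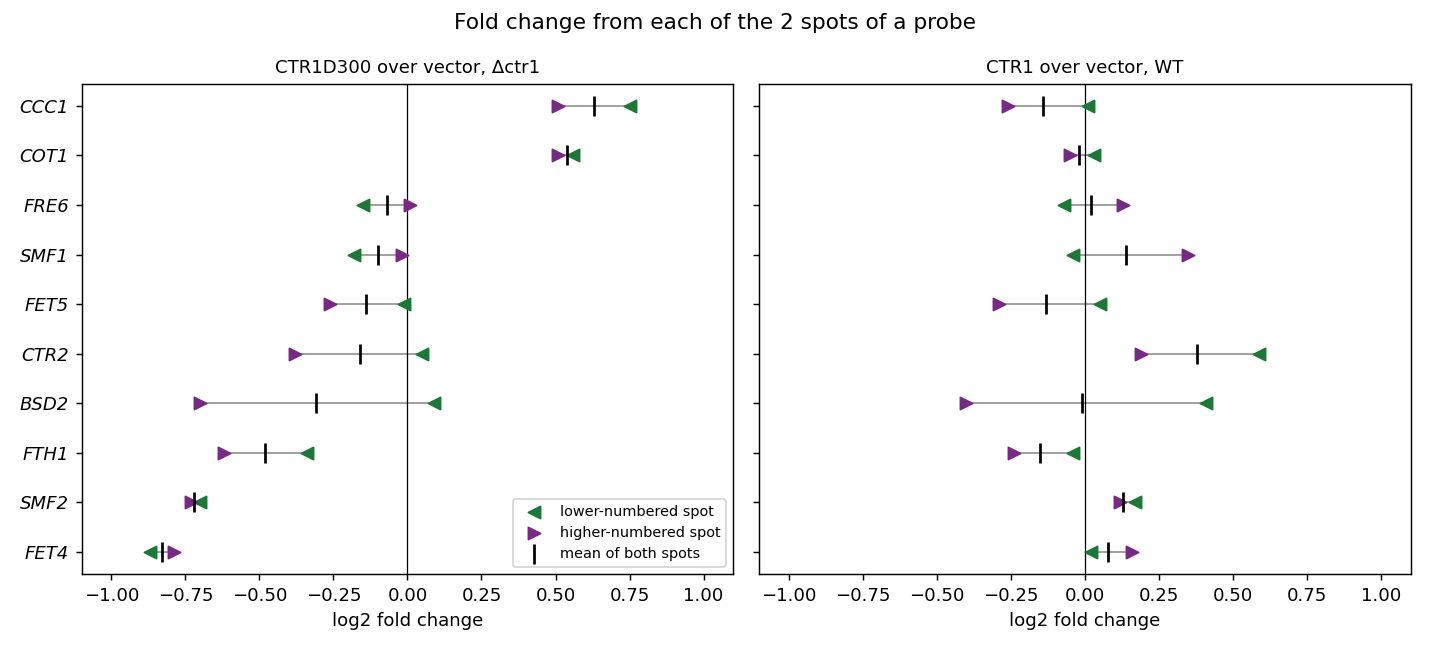
Log2 fold change (x axis) of each transporter gene from the lower-numbered spot, the higher-numbered spot and the mean of both, for CTR1D300 over its vector control (left) and CTR1 over its vector control (right). The 2 spots lie close together for SMF2, FET4 and COT1, while those of BSD2 fall on opposite sides of 0 in both panels, at 0.09 and -0.70 with CTR1D300 and at 0.41 and -0.40 with CTR1.

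Across the 10 genes, 2 were called higher and 4 lower with CTR1D300, where 54.5% of all genes tested were called, 24% higher and 30.6% lower. The share of called transporters was therefore near that of all genes. The groups' arrays did not overlap for 2 higher and 6 lower transporters, against 28% higher and 34.9% lower among all genes. The median log2 fold change was -0.15 over the 10 genes and -0.05 over all genes. With full-length CTR1, 1 of the 10 was called, against 13.3% of all genes (7.25% higher and 6.02% lower), and 3 of the 10 had an unadjusted p under 0.05, as did 1674 of all 6127 genes. Arrays did not overlap for 2 higher and 1 lower of the 10, against 17% and 13.7% of all genes. The median was 0 over the 10 genes and 0.02 over all genes. With the replicate number as a block, 27.4% of all genes were called with full-length CTR1, and still 1 of the 10 transporters. In RNA from whole cultures, a change in every cell and a change in some of the cells cannot be told apart.

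The deletion with the empty vector addressed what loss of CTR1 itself did to these genes in added copper. None of the 10 transporters was called by limma in the deletion-strain vector controls against the wild-type vector controls, and 0 had an unadjusted p under 0.05. The log2 fold changes ran between -0.11 for CCC1 and 0.12 for SMF2. For SMF2 the 95% interval was -0.04 to 0.27 and for CCC1 it was -0.24 to 0.03. Over all genes, 0.49% were called in this comparison and 1.62% with the replicate number as a block. The arrays did not overlap for SMF2 and COT1, which were higher, and for CCC1, which was lower, against 3.61% higher and 11.3% lower among all genes. The strains shared 1 slide, with 1 array of each group. Their other arrays lay on a separate slide for each strain, so strain and slide cannot be told apart for those.

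**Figure D3:**
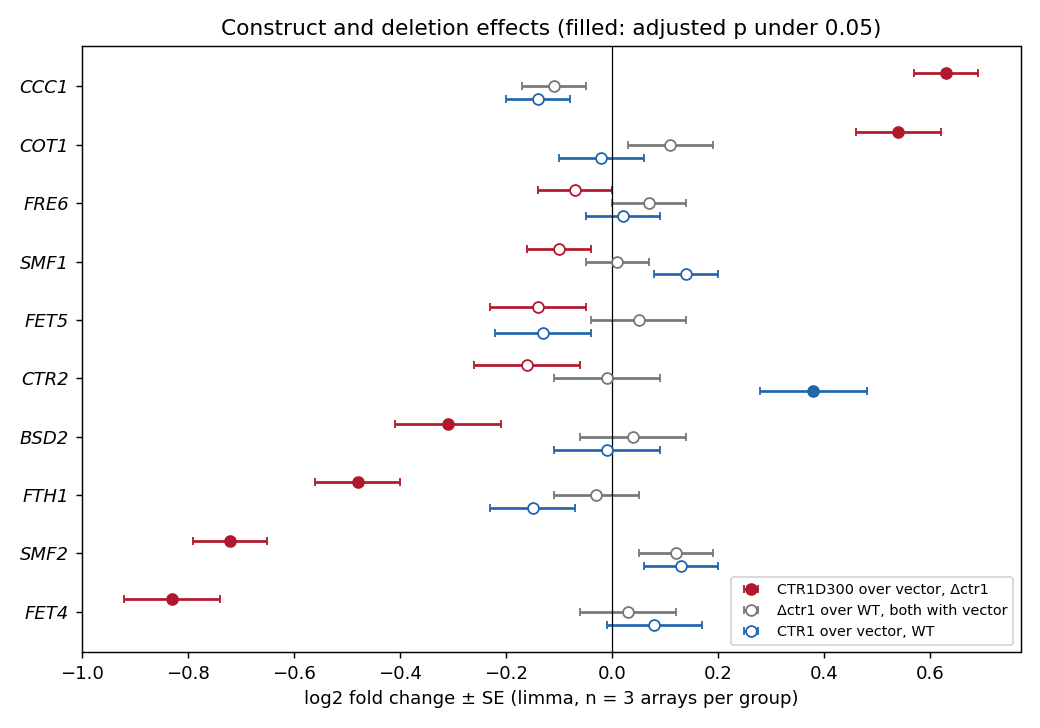
Log2 fold change with its SE (x axis, limma, 3 arrays per group) of the 10 transporter genes for CTR1D300 over its vector control, for the deletion over wild type with the empty vector, and for CTR1 over its vector control. Filled points passed an adjusted p of 0.05: 6 of 10 for CTR1D300, 0 of 10 for the deletion and 1 of 10 for CTR1.

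Set directly against the CTR1 cultures, the CTR1D300 cultures had higher CCC1 and COT1 and lower CTR2, SMF1, SMF2, FET4 and FTH1. The log2 fold changes were 0.66 for CCC1 (limma adjusted p = 5.3e-06) and 0.67 for COT1 (limma adjusted p = 4.47e-05). Among the lower genes they ran between -0.88 for FET4 (limma adjusted p = 1.26e-05) and -0.23 for SMF1 (limma adjusted p = 0.00748), with -0.55 ± 0.10 for CTR2 (limma adjusted p = 0.000589). These 7 of 10 compare with 62.9% of all genes called, 24.5% higher and 38.4% lower. The same 2 higher and 5 lower genes had arrays that did not overlap, against 25.5% and 39.3% of all genes. BSD2 gave -0.25 ± 0.10 (limma adjusted p = 0.053), FET5 0.04 ± 0.09 (limma adjusted p = 0.677) and FRE6 -0.01 ± 0.07 (limma adjusted p = 0.876). The median over all genes was -0.11 here and 0 with quantile normalisation between arrays. With that normalisation SMF1 was -0.12 (limma adjusted p = 0.094) and was no longer called, while the other 6 kept their calls and directions. Of all genes called, 1499 were higher and 2352 lower, against 1921 higher and 1886 lower with quantile normalisation. Replicates 2 and 3 of the CTR1 cultures lay on slide 2 and those of the CTR1D300 cultures on slide 3. Group and slide cannot be told apart for those arrays.

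The difference between the construct effects, CTR1D300 over its control minus CTR1 over its control, tests whether the 2 effects differ, each taken within its own strain. Each construct was in 1 strain only, so construct and chromosomal CTR1 locus cannot be told apart by it. The difference was positive for CCC1, at 0.77 ± 0.09 (95% interval 0.58 to 0.96, limma adjusted p = 5.16e-05), and for COT1, at 0.56 ± 0.12 (0.30 to 0.82, limma adjusted p = 0.00301). It was negative for FET4, at -0.90 ± 0.13 (-1.19 to -0.62, limma adjusted p = 0.000275), and for SMF2, at -0.85 ± 0.10 (-1.07 to -0.63, limma adjusted p = 6.28e-05). For CTR2 it was -0.54 ± 0.14 (-0.84 to -0.24, limma adjusted p = 0.00844), with -0.53 and -0.57 from the 2 spots, which disagreed within each construct. Both constructs lay in the same slide column and both vector controls in the other.

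Less firm differences were those of FTH1, at -0.32 ± 0.12 (limma adjusted p = 0.0438), and of SMF1, at -0.24 ± 0.09 (limma adjusted p = 0.0439). Leaving out 1 array ended the FTH1 call in 9 of 12 cases and the SMF1 call in 11 of 12. BSD2 gave -0.30 ± 0.15 (limma adjusted p = 0.123), which passed with the replicate number as a block (adjusted p = 0.0415). FET5 gave -0.01 ± 0.13 (95% interval -0.28 to 0.27) and FRE6 -0.08 ± 0.10 (-0.30 to 0.13). The 7 called transporters stand beside 46.4% of all genes, 19.7% higher and 26.7% lower.

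Ordered by group means, CCC1 and COT1 had their highest level in the CTR1D300 cultures, and SMF1, SMF2, FET4 and FTH1 their lowest, each with no overlap with the next group. CTR2 was highest in the CTR1 cultures and lowest in the CTR1D300 cultures, again with no overlap with the neighbouring group at either end. For FRE6, FET5 and BSD2, no 2 neighbouring groups in the order were free of overlap. As a description over the 12 arrays, which share 4 group means, CCC1 correlated at r = -0.98 with SMF2, -0.94 with FET4 and 0.94 with COT1. SMF2 and FET4 correlated at 0.95. Within groups, as deviations from the group means, the correlation of SMF2 with FET4 was 0.04, that of CCC1 with COT1 was 0.65 and that of SMF2 with FTH1 was 0.71.

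Genes outside the list were ranked by the Pearson correlation of their pattern over the 12 arrays with that of each called transporter. For SMF2 the highest were CCC2, the copper ATPase that loads Fet3 (r = 0.991), GAL4 (0.985) and FET3 (0.985). For CCC1 they were ZTA1 (0.988), ERG8 (0.984) and SPE1 (0.983), and for COT1 MAL33 (0.98), ARG56 (0.975) and YLR152C (0.972). FET4 was most like PDS1 (0.98), TNA1 (0.979) and ISR1 (0.977), and FTH1 most like COQ2 (0.992), APL4 (0.981) and HST3 (0.971). For CTR2 they were MTE1 (0.951), AIM24 (0.94) and SEC5 (0.94), for SMF1 CDC53 (0.961), BCK2 (0.955) and SWC5 (0.942), and for BSD2 ALG2 (0.921), PMT4 (0.914) and YMR075C-A (0.894).

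Of 14 other transporters of intracellular membranes, 2 were called higher and 4 lower with CTR1D300, where 24% of all genes were called higher and 30.6% lower, with a median log2 fold change of -0.13 against -0.05 over all genes. Those with the smallest p were CCC2, which fell by 1.16 ± 0.08 (limma adjusted p = 1.14e-06), ZRT3, the vacuolar zinc exporter, which fell by 1.13 ± 0.14 (6.65e-05), PMC1, the vacuolar calcium ATPase, which fell by 0.63 ± 0.09 (0.00021), and VNX1, a vacuolar cation exchanger, which fell by 0.47 ± 0.09 (0.000873). With full-length CTR1, 0 of the 14 were called by limma, against 13.3% of all genes, and the median was 0.09. An unadjusted p under 0.05 was found for 5 of the 14 and for 1674 of all 6127 genes. Of 9 genes for high-affinity uptake at the plasma membrane, 0 were higher and 5 lower with CTR1D300, with a median of -0.31; 54.5% of all genes were called, 30.6% lower. The 5 were FTR1, FET3, FRE2, a ferric reductase gene at -0.76 ± 0.13 (limma adjusted p = 0.000613), ZRT2, a zinc transporter gene at -0.50 ± 0.10 (0.00195), and CTR3. With full-length CTR1, 2 of the 9 were called higher, where 7.25% of all genes were. They were FET3 and ZRT1, a high-affinity zinc transporter gene at 0.49 ± 0.11 (limma adjusted p = 0.0129), with 1.14 and -0.14 from its 2 spots.

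Regulators and sorting partners numbered 13, of which 3 were higher and 3 lower with CTR1D300, against 24% and 30.6% of all genes, with a median of 0.07. TIS11, for the RNA-binding protein made in iron deficiency, read -2.81, -2.61 and -2.50 in the CTR1D300 cultures, against 0.23, 0.03 and 0.13 in the deletion-strain vector controls, and fell by 2.77 ± 0.17 (limma adjusted p = 4.66e-07). It read 1.13, 0.57 and 1.19 in the CTR1 cultures, against 0.30, -0.18 and 0.16 in the wild-type vector controls, and rose by 0.87 ± 0.17 there (limma adjusted p = 0.00666). ZAP1, for the activator of zinc uptake genes, fell by 0.95 ± 0.11 with CTR1D300 (limma adjusted p = 4.81e-05) and rose by 0.51 ± 0.11 with CTR1 (limma adjusted p = 0.0124). AFT2, for an iron-responsive activator, rose by 0.62 ± 0.07 (limma adjusted p = 5.4e-05) and MAC1, for the activator of copper uptake genes, rose by 0.43 ± 0.06 (limma adjusted p = 0.000147) with CTR1D300. TIS11 and ZAP1 were the 2 of these 13 genes called with full-length CTR1, where 13.3% of all genes were called and the median of the list was -0.01.

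The V-ATPase acidifies the vacuole and so drives many of its importers. Of 14 measured subunits, 0 were higher and 6 lower with CTR1D300, against 24% and 30.6% of all genes, with a median of -0.17. VMA7 fell by 0.59 ± 0.08 (limma adjusted p = 0.000207), STV1 by 0.33 ± 0.06 (limma adjusted p = 0.00087, with -0.09 and -0.58 from its spots), VMA2 by 0.52 ± 0.10 (limma adjusted p = 0.00155) and VMA13 by 0.47 ± 0.10 (limma adjusted p = 0.00257). VMA7 fell by 0.32 ± 0.08 with full-length CTR1 (limma adjusted p = 0.0316), with -0.45 and -0.16 from its spots (limma adjusted p = 0.00633 and 0.209). It was the single call with full-length CTR1, where 13.3% of all genes were called. The median of the subunits there was -0.08. No gene of the 4 lists was called in the deletion comparison by limma, where 3 intracellular transporters, 5 uptake genes, 2 regulators and 0 subunits had an unadjusted p under 0.05, as did 525 of all 6127 genes.

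**Figure D4:**
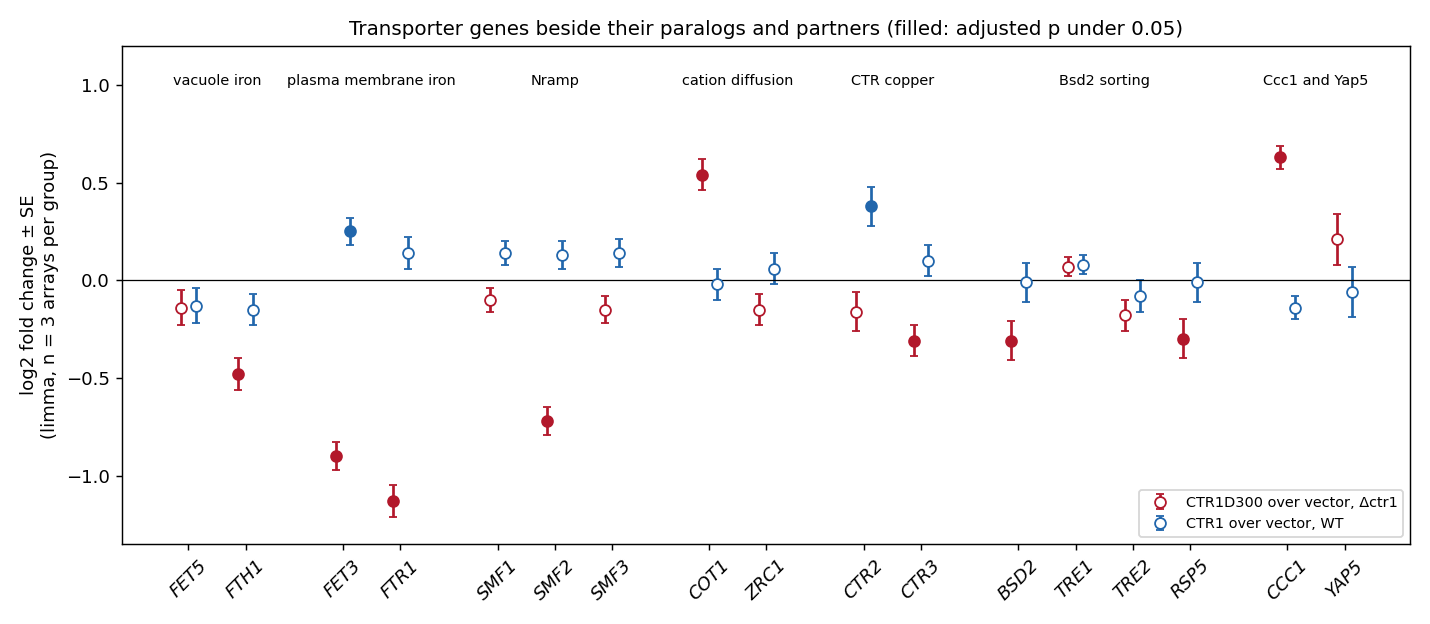
Log2 fold change with its SE (y axis, limma, 3 arrays per group) of transporter genes beside their paralogs and partners (x axis), for CTR1D300 over its vector control and CTR1 over its vector control; filled points passed an adjusted p of 0.05. FET3 at -0.90 and FTR1 at -1.13 lie below the vacuolar pair FTH1 at -0.48 and FET5 at -0.14 with CTR1D300, SMF2 at -0.72 lies below SMF1 at -0.10 and SMF3 at -0.15, and COT1 at 0.54 lies above ZRC1 at -0.15.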

How the data were processed

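RNA of 12 cultures was hybridised to single-colour arrays. Scans were read with Agilent Feature Extraction 10.7.1.1, per the file headers. The deposited processed signal is a background-subtracted intensity per spot, not scaled between arrays. The deposited median signal and median local background are intensity values too, and the deposited flags (other: 0 or 1) give saturation, outliers and whether a spot exceeds its background clearly. The series matrix of the authors holds values on the log2 scale, as deposited, whose columns correlated at 0.9997 or more with their own scanner files; their scaling was not stated in any source used.

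Here log2 processed signals were averaged over the 2 spots of each probe, and the array's 75th percentile of these averages was then subtracted. For genes with several probes the brightest was used. A probe was kept where 3 or more arrays put it well above background (6155 of 6256). Group means were fitted over all 12 arrays with limma 3.58.1 in R 4.3.3 (8 residual degrees of freedom), with adjusted p under 0.05 as threshold. The fit was also run on simulated data with independent noise on each array. That simulation held no slide, column, replicate or spot effects, so it cannot speak to them. P-values rest on the spread between the 3 independent experiments within each group. This spread was pooled over all groups and drawn by limma towards a value common to all genes. Per array, the median processed signal was 1792 to 2999, 96.5% to 98.9% of probes were well above background and no spot was saturated. Within groups, arrays correlated at 0.992 to 0.998. The number of arrays limits the precision.

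Samples of equal replicate number deviated together from their group means in the CTR1 comparison (correlations 0.75, 0.692 and 0.342), the CTR1D300 comparison (0.679, 0.699 and 0.394) and the deletion comparison (0.554, 0.295 and 0.134). Between CTR1D300 and CTR1, pairs 1 and 2 did (0.381 and 0.407) and pair 3 did not (-0.03), so those samples were not taken as paired. The main fit left the pairing out in every comparison, and the replicate number as a block was an alternative only. Replicate 1 of all groups lay on slide 1, replicates 2 and 3 of the wild type on slide 2, and those of the deletion strain on slide 3. All vector controls lay in slide column 1 and all construct cultures in column 2. Construct and column thus cannot be told apart in either construct comparison.

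The 10 genes, the 4 other lists and the markers were chosen with earlier results of these data known. The text names all 10 genes, their paralogs and partners, the 4 called members of each list with the smallest p, and the 3 most correlated genes of each called transporter. Gene names came from the array and a RefSeq table of assembly R64 (5740 of 6228 genes matched); the array design names sacCer1, so no coordinates are given. Probe and promoter sequences were not used here, and the planned motif search was not run. VMA9 was not analysed here. Alternatives tried were other scalings, background correction, filters, spots and probes, blocks, subsets of arrays and the series matrix.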

Additional observations from a re-analysis of the deposited data

Results flagged for a closer look

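The effects of CTR1D300 and of CTR1 differed by the test of the difference itself for 7 transporters, where 46.4% of all genes tested differed. CCC1 at 0.77 (limma adjusted p = 5.16e-05) and COT1 at 0.56 (0.00301) had a higher effect with CTR1D300. CTR2 at -0.54 (0.00844), SMF2 at -0.85 (6.28e-05), FET4 at -0.90 (0.000275), FTH1 at -0.32 (0.0438) and SMF1 at -0.24 (0.0439) had a lower one, all on the log2 scale. The 2 constructs were in different strains, so construct and chromosomal CTR1 locus cannot be told apart here. LEU2 differed too, with means of -0.79 with CTR1D300 and 4.35 with CTR1, against 5.59 and 5.86 in their vector controls. Its part was not tested.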

How the results depend on the processing

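Of 1290 alternative values of the transporters' fold changes and differences, 1225 kept their direction where they had a call and their side of the threshold, 49 lost the call, 14 gained one and 2 reversed. Both reversals were of BSD2 with the lower-numbered spot alone, at 0.41 with CTR1 and 0.09 with CTR1D300. The count of transporters called with CTR1 was 1, and it was 0 with normexp background correction, with only the groups compared, without slide 1, and when both spots had to be called alone (chosen after seeing the data). Of all genes, 13.3% were called in the main fit, and 10.1%, 9.21%, 5.7% and 6.23% in these settings in turn. The transporter count was 2 with the lower-numbered spot (CTR2, BSD2), where 22.2% of all genes were called. It was 2 with the higher-numbered spot (CCC1, SMF1), where 19% were, and 0 to 2 when 1 array was left out. Leaving out 1 array gave 5 to 6 calls with CTR1D300, 0 to 0 with the deletion, 7 to 8 between the construct cultures and 5 to 7 for the difference between the construct effects, which has no value with only the groups compared. With the replicate block, the counts of transporters were 1, 6, 0, 8 and 8 in the comparisons of CTR1, CTR1D300, deletion, CTR1D300 against CTR1, and difference between effects. The shares of all genes called there were 27.4%, 66.6%, 1.62%, 71.8% and 59.9%. The 2 changes of call were both of BSD2, at adjusted p = 0.0149 between the construct cultures and 0.0415 for the difference between the effects.

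Without slide 1, BSD2 lost its CTR1D300 call (-0.21, adjusted p = 0.0883), and it did so with median centring (-0.26, 0.0617) and quantile normalisation (-0.24, 0.0998). The differences between effects of SMF1 (-0.17, 0.113) and FTH1 (-0.25, 0.105) lost their calls with median centring, and with quantile normalisation (-0.16, 0.134, and -0.21, 0.137). Over all genes, the 813 calls with CTR1 became 1361 with the lower-numbered spot, 1677 with the replicate block, 1307 and 1338 with slide as a fixed and a random block, 349 without slide 1 and 381 with each spot alone. The 30 deletion calls became 99 with the replicate block. The call of SMF1 between the construct cultures was lost with quantile normalisation (-0.12, 0.094) and without slide 1 (-0.23, 0.055). CTR2 with CTR1 was 0.42 with normexp (0.0501), 0.38 with only the groups compared (0.0983) and 0.40 without slide 1 (0.0784). The causes were not tested.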

Other observations

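The chromosomal neighbours of the 10 transporter genes, named from their order in the RefSeq table, were measured in 16 cases. With CTR1D300, 12 of these 16 neighbours were called, where 54.5% of all genes were. Of the 9 called neighbours of a called transporter, 6 moved in the same direction as the transporter. Among all 3341 genes called with CTR1D300, 1468 were higher and 1873 lower. The 6 include SNF5 and CTP1, the neighbours of BSD2, whose own call rested on 1 of its 2 spots. Whether neighbours move together was not tested. CCC1, which was higher, lies between MSC3, a gene at -0.51 ± 0.11 (limma adjusted p = 0.00313), and RSA3, a ribosome assembly gene at 0.62 ± 0.11 (limma adjusted p = 0.000971). FET4, which was lower, lies beside ADH6, an alcohol dehydrogenase gene at 0.63 ± 0.08 (limma adjusted p = 7.94e-05). SMF2 lies beside FSH1, which fell by 0.66 ± 0.06 (limma adjusted p = 1.1e-05). BSD2 lies beside CTP1, the mitochondrial citrate carrier gene, which fell by 2.49 ± 0.22 (limma adjusted p = 5.79e-06).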
